A study of Mus musculus with 8 samples.

Results

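Ifit1, Ifit2, Ifit3, Ifi44, Ifi35, Ifi27 and Ifi27l2a, 7 interferon-inducible genes, were followed in RNA-seq data of mouse liver endothelial cells (ECs) with and without LRP1. They were chosen by name from a table of 22520 protein-coding genes, and the choice was made with their difference between the genotypes known, so their values in this comparison are given as a description, with no p-value. Of the 7 names, 6 matched a gene symbol of the table, and Ifi27 was found by its identifier, ENSMUSG00000064215, which the table lists under the symbol Ifi27l1 and GENCODE M21 names Ifi27. The study compared 4 WT libraries (LRP1 f/f; Cdh5-CreER-/-) with 4 LRP1 eKO libraries (LRP1 f/f; Cdh5-CreER+/-) from C57BL/6 littermates at postnatal day 14, labelled as replicates 1 to 4 of each genotype. All animals carried floxed Lrp1 alleles. CreER, an inducible recombinase driven by the promoter of the endothelial cadherin gene Cdh5, was carried by the LRP1 eKO animals only, so an effect of CreER itself and one of losing Lrp1 cannot be told apart, and the inducing treatment is not given in the sources used here. Cells were collected from liver with beads against PECAM-1, an endothelial surface protein, and the labels call them liver microvesicular cells.

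Interferons are secreted proteins that bind receptors coupled to Janus kinases. The kinases phosphorylate factors such as Stat2, which enters the nucleus with Irf9 in the complex ISGF3 to bind a promoter element called ISRE, switching on interferon-stimulated genes. The Ifit proteins bind viral or otherwise foreign RNA and block its translation, and the other 4 proteins are products of genes induced by interferon in many cell types, endothelium and liver macrophages among them.

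The promoters of the Ifit genes are shown first, because they show which of these neighbouring genes share regulatory sequence. Sequences are from RefSeq on GRCm38.p6, each given 5′ to 3′ on the strand of its gene, and capitals mark every match to the ISRE core GAAANNGAAA or its reverse complement TTTCNNTTTC. The stretches are Ifit1 at chr19:34640760-34640838 on the plus strand, Ifit3 at chr19:34583348-34583441 on the plus strand, Ifit3b at chr19:34607744-34607837 on the plus strand and Ifit1bl1 at chr19:34602038-34602097 on the minus strand. For contrast, 2 stretches without a match are given, Ifit2 at chr19:34550594-34550693 on the plus strand and Ifi44 at chr3:151749961-151750060 on the minus strand. No exon of GENCODE M21 lies under any of these 6 stretches.
Ifit1: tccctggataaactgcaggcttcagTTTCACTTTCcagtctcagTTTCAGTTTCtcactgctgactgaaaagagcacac
Ifit3: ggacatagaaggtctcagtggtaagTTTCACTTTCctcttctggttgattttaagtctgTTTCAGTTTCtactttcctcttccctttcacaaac
Ifit3b: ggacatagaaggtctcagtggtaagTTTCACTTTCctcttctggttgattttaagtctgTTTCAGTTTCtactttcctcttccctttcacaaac
Ifit1bl1: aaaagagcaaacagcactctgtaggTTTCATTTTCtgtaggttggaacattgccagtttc
Ifit2: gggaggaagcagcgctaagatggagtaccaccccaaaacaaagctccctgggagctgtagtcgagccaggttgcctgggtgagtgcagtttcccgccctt
Ifi44: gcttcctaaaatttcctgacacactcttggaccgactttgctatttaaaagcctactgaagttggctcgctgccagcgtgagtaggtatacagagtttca

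Ifit1 and Ifit3 each had 2 ISRE cores within 250 bases upstream of the annotated start. In Ifit1 they began 104 and 85 bases upstream, and in Ifit3 they began 156 and 122 bases upstream. The printed stretches of Ifit3 and of its paralog Ifit3b were identical at 94 of 94 bases. Over the longer promoter windows described below, the ungapped alignment covered 268 bases, of which 201 (75.0%) were identical. The 79 bases printed for Ifit1 also lie upstream of an annotated start of Ifit1bl2, which is transcribed away from Ifit1 on the opposite strand, so both genes share the same pair of cores. Ifit1bl2 has another annotated start, whose window had 0 ISRE cores.

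The promoter table, which holds 250 bases before and 50 bases after each start, had an entry for 5 of the 7 genes and none for Ifi27 and Ifi27l2a. Of these 5 genes, 2 had an ISRE core, and Ifit2, Ifi44 and Ifi35 had no match to these letters in their windows. The core was present in 3.44% of all 32851 windows. Counted per gene, over any window of the gene, it was present in 3.70% of the 9050 tested genes with a window. It was present in 18 of the 38 type I interferon-stimulated genes in a list of such genes that had a window. A second pattern, the GAS core TTCNNNGAA, an element known from the response to interferon gamma, matched once in Ifit2, 241 bases upstream, and once in Ifi35, just past the start. It was present in 8.30% of all windows and, counted per gene, in 7.90% of the tested genes with a window. These matches describe the sequence only and do not show binding.

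**Figure D1:**
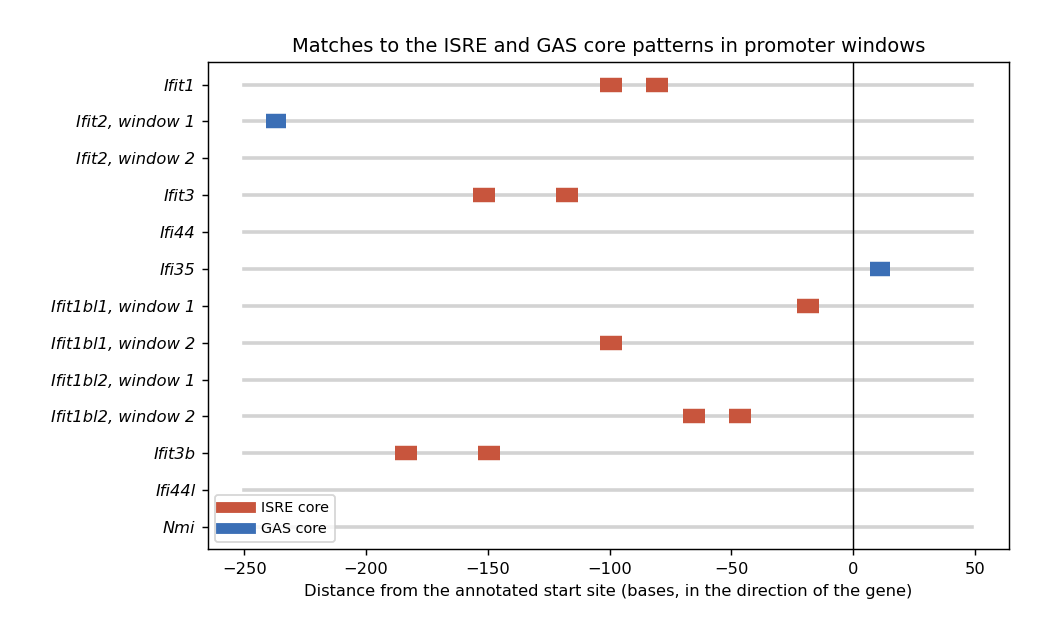
Positions of matches to the ISRE core (red) and the GAS core (blue) in promoter windows of the Ifit and Ifi genes, with distance from the annotated start site in bases on the x axis and 1 grey line per window. Ifit1, Ifit3 and Ifit3b each carry 2 ISRE cores upstream of the start, and the windows of Ifit2, Ifi44 and Ifi35 carry none.

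The values are quantile-normalized signals. The unit before normalization and the depth of the libraries are not given in the sources used here, so levels were compared between libraries for the same gene and never between genes, and no counting error could be given. Differences are LRP1 eKO minus WT on the log2(signal + 1) scale, with the standard error (SE) of the limma fit over 11391 genes, which were those reaching a signal of 1 in 4 or more of the 8 libraries. On this scale the change of a gene near the lower end comes out too small. The targeted gene, Lrp1, went from a mean WT signal of 65.5 ± 13.3 to 4.41 ± 1.65 in LRP1 eKO (SD, n = 4 each), and no LRP1 eKO library overlapped the WT range. Nothing in the labels says that the replicates came from separate animals, so p-values measure the spread between these libraries.

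All 7 genes had a higher mean signal in LRP1 eKO libraries, and for each gene every LRP1 eKO library was above every WT library. A separation without overlap was seen in this direction in 20.0% of all tested genes and in the other direction in 22.5%. The 7 genes fell into 4 with a difference above 1.8 on the log2 scale (Ifit1, Ifi44, Ifit3 and Ifi27l2a) and 3 with a difference under 0.6 (Ifi27, Ifi35 and Ifit2), and no member lay between. The first 4 passed an adjusted p of 0.05 with at least a 2-fold change, a call that 0.869% of tested genes reached as higher and 0.790% as lower. On adjusted p alone all 7 passed as higher, against 19.0% of tested genes. The genes were chosen for this difference, and Ifi44 entered the fit through the LRP1 eKO libraries, so nothing is read from these counts. Without LRP1 eKO library 2, 174 genes in place of 99 were called higher over the whole table, and 67.7% of all calls were higher in place of 52.4%. With all 8 libraries, the median difference of the 7 genes was 1.86, beside -0.0095 for all tested genes.

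**Figure D2:**
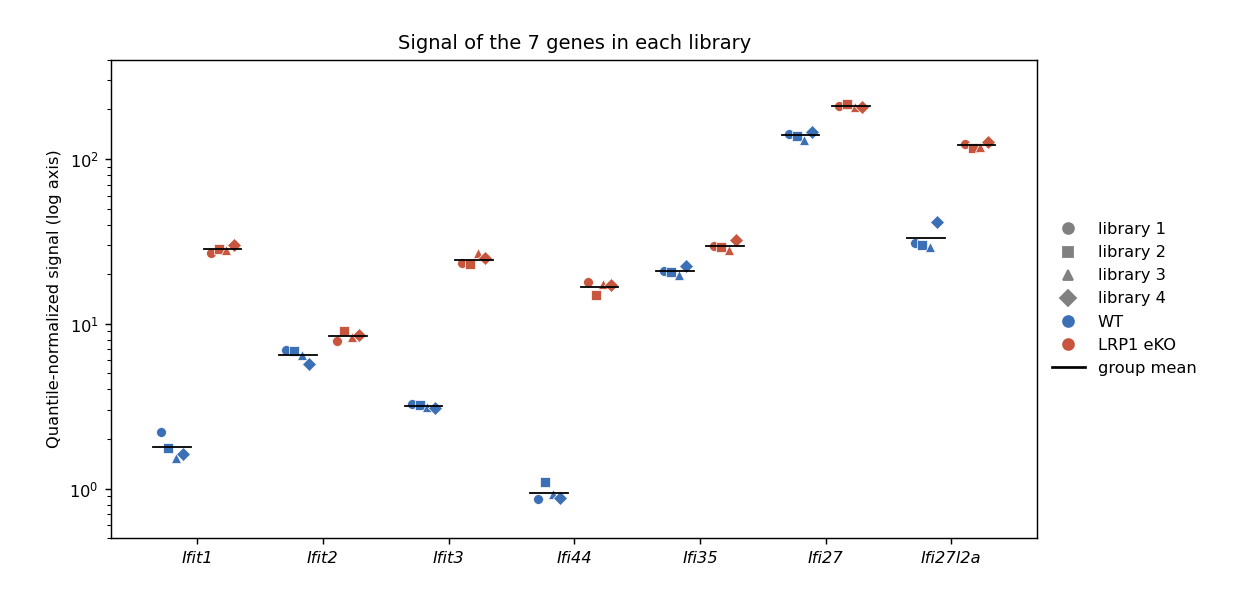
Quantile-normalized signal of the 7 genes in each library, on a log axis, with WT in blue, LRP1 eKO in red, a marker shape per library number and a line at each group mean. The groups are separate for every gene, with LRP1 eKO signals of 27.0 to 30.04 for Ifit1 above WT signals of 1.53 to 2.19, and a narrow gap for Ifit2.

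Ifit1, an RNA sensor that binds capped RNA lacking the methyl mark of host transcripts, lies on chr19:34640871-34650009 on the plus strand. Its signal was 2.19, 1.75, 1.53 and 1.63 in WT libraries 1 to 4 and 27.0, 28.4, 28.1 and 30.04 in LRP1 eKO libraries 1 to 4. The WT libraries were all near the filter level, and the LRP1 eKO libraries lay within a narrow band far above them. The means of 1.78 ± 0.293 and 28.4 ± 1.25 (SD, n = 4 each) gave a ratio of 16.0 and a difference of 3.41 (SE 0.0763). The lowest LRP1 eKO library was 12.3 times the highest WT library.

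Ifit3, which partners with other Ifit proteins, lies on chr19:34583531-34588731 on the plus strand. WT libraries had signals of 3.25, 3.20, 3.11 and 3.10, and LRP1 eKO libraries had 23.3, 23.0, 26.7 and 25.1. The WT values were almost the same in the 4 libraries, with a coefficient of variation of 2.27%, the smallest of the 7 genes in WT. The means of 3.16 ± 0.0718 and 24.5 ± 1.74 (SD, n = 4 each) gave a ratio of 7.75 and a difference of 2.61 (SE 0.0582).

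Ifit2, an Ifit protein that binds AU-rich RNA and is linked to apoptosis, starts the cluster on chr19:34550694-34576419 on the plus strand. It had signals of 6.96, 6.83, 6.47 and 5.70 in WT and 7.92, 9.01, 8.33 and 8.61 in LRP1 eKO libraries. The groups were separate but close, and the lowest LRP1 eKO library was only 1.14 times the highest WT library. The means were 6.49 ± 0.565 and 8.47 ± 0.460 (SD, n = 4 each), with a difference of 0.34 (SE 0.0682), the smallest of the 7.

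Between Ifit2 and Ifit1 on the chromosome lie Ifit3, Ifit1bl1, Ifit3b and Ifit1bl2, and all 6 genes of the cluster had a higher mean in LRP1 eKO. Ifit3b, listed in the table under an older symbol, I830012O16Rik, had signals of 1.01, 1.07, 0.703 and 0.753 in WT and 5.74, 5.59, 6.35 and 6.75 in LRP1 eKO libraries. Every LRP1 eKO library was more than 5 units of signal, against WT libraries around 1. Its difference was 1.92 (SE 0.0864, limma adjusted p = 3.81e-07), and it was the only one of the 4 tested family genes outside the 7 to be called at 2-fold.

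Ifit1bl1 rose from 0.804 ± 0.141 to 1.69 ± 0.183 (SD, n = 4 each), a difference of 0.58 (SE 0.0797, limma adjusted p = 0.000458), without overlap, although no WT library reached the filter level of 1. Ifit1bl2, which shares the upstream region with Ifit1, stayed under the filter, with signals of 0.174 to 0.261 in WT and 0.380 to 0.460 in LRP1 eKO libraries. Its difference was 0.24, beside the 3.41 of Ifit1 across the shared region. Signals this low make the difference come out too small on this scale, and the ratio of means was 2.07, beside 16.0 for Ifit1. The genes on either side were Lipa, which encodes lysosomal acid lipase, and Slc16a12, a monocarboxylate transporter. Lipa rose by 0.43 (limma adjusted p = 0.00416) and Slc16a12 was below the filter, with a mean of 0.241 ± 0.0356 in WT and 0.136 ± 0.0475 in LRP1 eKO (SD, n = 4 each).

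Reads of these paralogs can be hard to assign. Of the 1696 stretches of 50 bases in the Ifit3 transcript of GENCODE M21, 869 (51.2%) also occur in Ifit3b, so their values are uncertain in how reads were divided between them. For Ifit1, 184 of 2607 stretches (7.06%) occur in Ifit1bl2 and 16 in Ifit1bl1. No stretch of Ifit2 occurs in another of these genes.

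**Figure D3:**
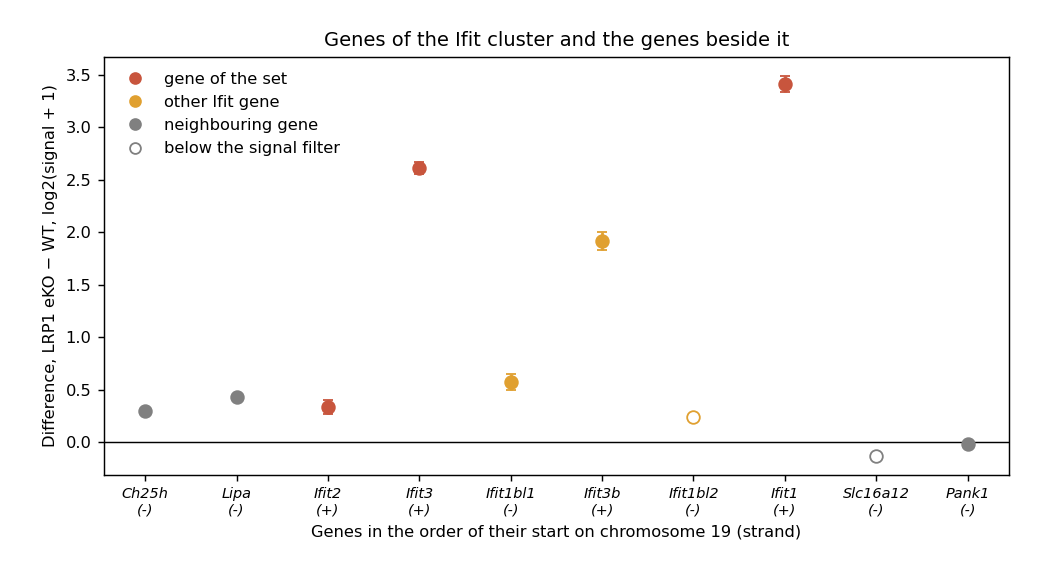
Difference between LRP1 eKO and WT on the log2(signal + 1) scale for genes in their order on chromosome 19, with SE bars for the Ifit genes and open symbols for genes below the signal filter. Ifit1 (3.41), Ifit3 (2.61) and Ifit3b (1.92) stand above Ifit2 (0.34) and Ifit1bl1 (0.58) in the same cluster.

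Ifi44, which encodes a cytosolic interferon-induced protein that slows cell proliferation, lies on chr3:151730922-151749960 on the minus strand. Its signal was 0.862, 1.10, 0.925 and 0.871 in WT and 17.8, 14.9, 17.4 and 17.2 in LRP1 eKO libraries. Only WT library 2 reached the filter level of 1 among the WT libraries, so that Ifi44 passed the filter through the LRP1 eKO libraries. The means of 0.940 ± 0.112 and 16.8 ± 1.30 (SD, n = 4 each) gave a ratio of 17.9 and a difference of 3.20 (SE 0.071).

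By ratio of means Ifi44 was the first of the 7, and by log2(signal + 1) Ifit1 was. With a pseudocount of 0.1 in place of 1, Ifi44 again came first, at 4.03 against 3.94 for Ifit1. Its neighbour and relative Ifi44l was listed at 0 in all 8 libraries.

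Ifi35, a cytosolic protein that pairs with Nmi in the regulation of innate signalling, lies on chr11:101448407-101458698 on the plus strand. The WT libraries had signals of 21.1, 20.7, 19.9 and 22.4, and the LRP1 eKO libraries had 29.6, 29.1, 28.2 and 32.3. Library 4 was the highest of each group and library 3 the lowest of each, and the groups did not overlap. The means were 20.98 ± 1.04 and 29.8 ± 1.75 (SD, n = 4 each), a difference of 0.49 (SE 0.0556). An exon of Ifi35 overlaps the antisense gene Gm11626, and the strand setting of the counting is not given in the sources used here, so reads of the pair cannot be told apart. The partner Nmi had means of 7.09 ± 1.30 and 7.78 ± 0.550 for WT and LRP1 eKO (SD, n = 4 each), a difference of 0.13 (SE 0.104, limma adjusted p = 0.338) with overlapping groups.

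Ifi27 and Ifi27l2a encode small hydrophobic membrane proteins and are neighbours on chromosome 12, together with Ifi27l2b. Ifi27, on chr12:103434211-103440239 on the plus strand, had signals of 143, 137, 130 and 147 in WT and 210, 216, 207 and 207 in LRP1 eKO libraries. The 2 groups were tight, with a coefficient of variation of 2.01% in LRP1 eKO. The means of 139 ± 7.13 and 210.1 ± 4.22 (SD, n = 4 each) gave a ratio of 1.51 and a difference of 0.59 (SE 0.0453).

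Ifi27l2a, on chr12:103442167-103443680 on the minus strand, had signals of 30.9, 30.1, 29.3 and 41.5 in WT and 124, 116, 119 and 126 in LRP1 eKO libraries. WT library 4 stood above the other 3 WT libraries, which gave this gene the widest relative spread in WT, a coefficient of variation of 17.4%. The means of 32.9 ± 5.73 and 121 ± 4.68 (SD, n = 4 each) gave a ratio of 3.68 and a difference of 1.86 (SE 0.0977), which was 1.97 without WT library 4. Ifi27l2b rose from 15.0 ± 1.01 to 22.8 ± 0.770 (SD, n = 4 each), a difference of 0.57 (SE 0.0559, limma adjusted p = 5.00e-05). Only 2 stretches of 50 bases were shared between the transcripts of Ifi27l2a and Ifi27l2b, so that the difference of 1.86 in the one and of 0.57 in the other came from almost separate sequence.

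The genes around the 7 in the interferon pathway were counted from lists drawn up by function, with the limma adjusted p over all tested genes. For every list below, the shares over all tested genes were 19.0% higher and 22.2% lower on adjusted p alone. For calls at 2-fold they were 0.869% and 0.790%. Ligands were almost undetected. Of 21 interferon genes, 17 were listed at 0 in all 8 libraries, namely Ifna1, Ifna4, Ifna5, Ifna6, Ifna7, Ifna9, Ifna11, Ifna12, Ifna13, Ifna14, Ifna15, Ifna16, Ifnab, Ifnk, Ifng, Ifnl2 and Ifnl3. The highest signal of any ligand in any library was 0.257, for Ifnz in WT, and none reached the filter. Ifnb1, the main beta interferon, was listed at 0 in the 4 WT libraries and in LRP1 eKO libraries 1 and 3, and had 0.0405 and 0.0465 in libraries 2 and 4. Ifna2 and Ifne also stayed below 0.1 in every library.

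Of 6 receptor chains, 0 were called at 2-fold in the limma test, 2 had an unadjusted p under 0.05 and 1 passed after adjustment, Ifngr2 of the interferon gamma receptor, at 0.18 (limma adjusted p = 0.0375). That call was lost, with an adjusted p between 0.0514 and 0.0968, when most of the single libraries were left out in turn (WT 1, 2 or 4 or any of the 4 LRP1 eKO libraries). Ifnar1 and Ifnar2, which form the type I receptor, had differences of 0.03 (limma adjusted p = 0.712) and -0.21 (limma adjusted p = 0.0638). Ifngr1, Ifnlr1 and Il10rb had differences of 0.12, -0.06 and 0.12, and none of the 3 passed.

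Of 5 Janus kinase and ISGF3 genes, 4 passed as higher and 1 was called at 2-fold. Stat2, the transactivating subunit of ISGF3, rose from 9.17 ± 0.198 to 23.1 ± 0.912 (SD, n = 4 each), a difference of 1.25 (limma adjusted p = 1.15e-07). The DNA-binding subunit Irf9 rose by 0.99 (limma adjusted p = 1.89e-06), close to the 2-fold line. Without WT library 1 or 4, or LRP1 eKO library 1 or 2, the calls at 2-fold were 2, and with a pseudocount of 5 they were 0. Jak1 and Jak2 rose by 0.37 and 0.22 (limma adjusted p = 0.000867 and 0.0155), and Tyk2 had a difference of 0.11 (limma adjusted p = 0.105).

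Of 5 tested interferon regulatory factors outside ISGF3, 1 was called higher and 1 passed as lower. Irf7, which drives a later wave of interferon production, rose from 10.2 ± 0.928 to 65.0 ± 5.14 (SD, n = 4 each), a difference of 2.55 (limma adjusted p = 1.67e-08). Irf1, a factor induced through the GAS element, fell by 0.25 on the log2 scale (limma adjusted p = 0.0144), from 8.07 ± 0.416 to 6.62 ± 0.565 (SD, n = 4 each).

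Of 12 tested RNA and DNA sensors and adaptors, 4 were called higher, the RNA helicases Ddx58, Ifih1 and Dhx58 at 1.10, 1.33 and 1.25 and the nucleic acid sensor Zbp1 at 2.55 (limma adjusted p from 6.86e-07 to 6.04e-06). Zbp1 passed the filter through the LRP1 eKO libraries alone, and the calls were 1 with a pseudocount of 5 and 2 with a mean signal of at least 5. Tmem173, the adaptor STING, fell by 0.32 on the log2 scale (limma adjusted p = 0.000807). In all, 6 of the 12 passed as higher and 2 as lower, beside 19.0% and 22.2% of tested genes. Of 8 tested feedback regulators 3 were called higher, Usp18, a protease that removes the ubiquitin-like Isg15, at 3.32, Isg15 itself at 3.55, and Trim30a at 2.01. Socs3, a suppressor of cytokine signalling, fell by 0.53 on the log2 scale (limma adjusted p = 0.0047).

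Of 41 tested type I interferon-stimulated genes, 21 were called higher and 0 lower, and on adjusted p alone 39 were higher and 1 lower. Of the 41, 6 genes (Rsad2, Mx2, Oas2, Oas3, Ddx60 and Slfn8) reached a signal of 1 in no WT library and so had to be higher to enter the fit, and 5 of them were among the calls. Genes that reached 1 in some but not all WT libraries also needed LRP1 eKO libraries to enter, and they are not in this count. With a pseudocount of 5 the calls were 9, and with a mean signal of at least 5 they were 12. The median difference was 1.00 over the 41, and 0.98 over all 46 genes of the list in the table, beside -0.0095 for all tested genes. Rtp4 and Oas1a, which encodes an RNA-activated synthetase, rose by 2.63 and 2.40, Xaf1 by 2.36, Bst2, which tethers virions to the membrane, by 1.52, and Parp9 by 1.23 (limma adjusted p from 7.89e-09 to 1.98e-07). Ifitm2, an antiviral membrane protein, fell by 0.49 on the log2 scale (limma adjusted p = 0.00083). Its relative Ifitm1, which did not pass, had a difference of -0.43 (limma adjusted p = 0.0503). Ifit2, Ifi35 and Ifi27 of the 7 were below the median of this list.

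Of 9 tested genes known mainly from interferon gamma, 6 were called higher, all of them GTPases or Cxcl10, a chemokine. Irgm2, Tgtp1, Tgtp2, Igtp and Iigp1 rose by 1.37, 1.26, 1.69, 1.01 and 1.16 (limma adjusted p from 2.68e-07 to 2.47e-06), and Cxcl10 rose by 1.14 (limma adjusted p = 3.61e-05). Tgtp1 and Tgtp2 are near-identical copies, so the division of reads between them is uncertain. Of the 9 tested genes, Iigp1 and Gbp6 reached a signal of 1 in no WT library, and with a pseudocount of 5 the calls were 1. Over all 18 genes of the list in the table the median difference was 0.15. Genes of the same list that mark antigen presentation, Ciita, Cd74, H2-Aa and H2-Eb1, did not reach the filter, H2-Ab1 had a difference of 0.03 (limma adjusted p = 0.819), and the chemokine Cxcl9 had a mean of 0.00361 in WT and 0 in LRP1 eKO.

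In comparison, of 14 tested genes of NF-kB feedback 0 were called at 2-fold by limma and 11 had an unadjusted p under 0.05. At an adjusted p of 0.05, 7 were higher and 4 lower, beside 19.0% and 22.2% of all tested genes, and their median difference was 0.16. This list was therefore not unchanged between the genotypes. Of 12 genes of other stress responses 1 was called, Atf3 at 1.03 (limma adjusted p = 0.000199), which was no longer called without LRP1 eKO library 1, and on adjusted p alone 7 were higher and 4 lower. The difference between these lists and the 7 genes was not tested, since the 7 were chosen for this contrast.

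**Figure D4:**
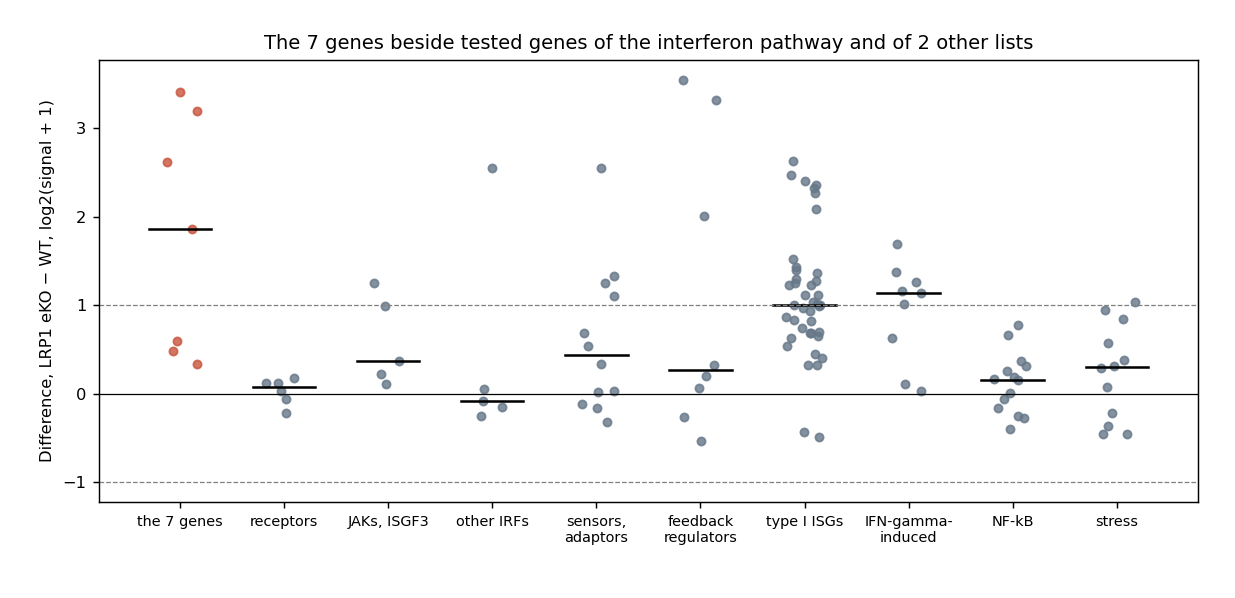
Difference between LRP1 eKO and WT on the log2(signal + 1) scale for the 7 genes (red) and for each tested gene of 9 lists (grey), with a black line at the median of each list and dashed lines at 2-fold. The median was 1.86 for the 7 genes, 1.00 for type I interferon-stimulated genes, 0.07 for receptors and 0.16 for NF-kB genes.

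The profile of the 7 genes was the mean over genes of log2(signal + 1) minus the WT mean. It was 0.03, 0.01, -0.07 and 0.03 in WT libraries 1 to 4 and 1.77, 1.75, 1.79 and 1.83 in LRP1 eKO libraries 1 to 4. The libraries of a genotype lay close together, and the gap between the genotypes was many times the spread within either. The genes were chosen with their difference known, so this gap is a description only. Outside all lists, the 5 genes nearest to this profile over the 8 libraries, by root mean square distance, were Trim30d, of the tripartite motif family (0.0939), Ccdc109b, a subunit of the mitochondrial calcium channel (0.111), Ifi203, an interferon-inducible DNA-binding protein (0.184), Itga6, an integrin (0.189), and Prl8a2, of the prolactin family (0.197). Among the 7 themselves, Ifi27l2a was nearest to the mean profile, at 0.140, and Ifit1 the farthest, at 1.15.

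Marker lists of 11 cell types were compared between the libraries, and none passed over all 8 libraries. The smallest possible exact permutation p is 0.0286, so 1 list alone could not pass after adjustment over 11 lists, however large its difference. In bulk samples fewer cells of a type and less RNA per cell cannot be told apart. Of 10 endothelial markers 9 had a higher mean in LRP1 eKO, and their summed signal was 49.1 to 51.7 in WT and 58.1 to 81.8 in LRP1 eKO. Pecam1 lay at 1.53 to 2.50 in WT and 1.84 to 3.85 in LRP1 eKO (limma adjusted p = 0.109). Cdh5 lay at 1.26 to 2.27 in WT and 2.21 to 4.99 in LRP1 eKO (limma adjusted p = 0.0205). Eng was higher, at 19.7 to 27.5 in LRP1 eKO against 10.95 to 13.8 in WT (limma adjusted p = 0.000195). Of the 8 tested endothelial markers, 3 passed as higher on adjusted p, beside 19.0% of tested genes, and 0 were called at 2-fold. Tek and Erg of this list did not reach the filter, with signals of 0.212 to 0.613 and 0.261 to 0.926 over all libraries. The purity of the preparation was not tested, and levels of different genes were not compared. The sinusoidal marker Oit3 was called higher at 1.11 (limma adjusted p = 0.000221), although no WT library reached 1. Of 8 markers of stellate cells and fibroblasts, 4 had a higher mean in LRP1 eKO. On adjusted p alone, 2 of the 6 tested were lower and 0 higher, beside 22.2% and 19.0% of tested genes. Dcn lay at 554 to 581 in WT and 441 to 486 in LRP1 eKO (limma adjusted p = 0.000542). Col1a2 lay at 616 to 889 and Lrat at 0.0167 to 0.201 over all libraries, with overlapping groups. No marker of either list was at 0 in all libraries. Hepatocyte and skeletal muscle marker lists were lower in LRP1 eKO libraries by 0.94 and 1.31 in mean log2 signal, without overlap (exact permutation p = 0.0286 each, the smallest that 4 libraries against 4 allow, adjusted p over 11 lists 0.0629). In the limma fit, 4 of 4 tested hepatocyte markers and 4 of 5 tested muscle markers were called lower, against 0.790% of all tested genes. The stellate and erythroid lists were also lower, by 0.11 and 0.44, and the plasmacytoid list was higher by 0.19. Those lists did not overlap either and had the same exact permutation p and adjusted p. The erythroid difference ranged from -0.576 to -0.0555 when single libraries were left out, and its globin transcripts were listed in WT library 2 alone. Without LRP1 eKO library 2, the hepatocyte and muscle lists and 6 other lists passed, with an exact permutation p adjusted to 0.0393. For the hepatocyte and muscle lists the exact p was already the smallest possible over all 8 libraries. Their adjusted p fell because more lists reached the smallest exact p, which does not show a larger difference in them. The part of the marker lists in the result on the 7 genes was not tested.

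Macrophage and Kupffer cell markers varied widely among the LRP1 eKO libraries. All 14 had a higher mean in LRP1 eKO. In the limma fit, however, only 1 of the 11 tested passed as higher on adjusted p, beside 19.0% of tested genes. At 2-fold 0 of them were called. The summed signal of the 14 was 134 to 267 in WT libraries and 492 to 905 in LRP1 eKO libraries 1, 3 and 4, but 66.7 in LRP1 eKO library 2, below every WT library. The difference of the list was 1.00 (exact permutation p = 0.229, adjusted over 11 lists 0.279), and 1.69 without LRP1 eKO library 2 (exact permutation p adjusted to 0.0393). Clec4f, a Kupffer cell marker, was listed at 0 in all WT libraries and stayed below the filter, at 0.124 to 0.826 in LRP1 eKO. In LRP1 eKO library 2 the signal of the 7 genes was between 0.855 times (Ifi44) and 1.09 times (Ifit2) the mean of the other 3, with Ifi44, Ifit3 and Ifi27l2a at their lowest of the group there.

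Plasmacytoid dendritic cells, the main producers of type I interferon, had 2 of 7 markers listed at 0 in all libraries, Siglech and Klk1. The sum of this list, 95.9 to 108 in WT and 259 to 295 in LRP1 eKO, was carried by Bst2, which is also an interferon-stimulated gene. Markers of T and NK lymphocytes summed to at most 0.104 in any library and those of B lymphocytes to at most 0.267, so that transcripts of these cells were close to undetected in both genotypes. Neutrophil markers summed to 0.734 to 1.70 in WT and 1.45 to 3.94 in LRP1 eKO.

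Globin transcripts of the erythroid list were present in WT library 2 alone, where Hba-a2 had a signal of 11.1, and in that library the signal of 6 of the 7 genes lay within the range of the other WT libraries, with Ifi44 the exception. Over all tested genes, WT library 4 was the WT library farthest from the other 3 for 61.7% of genes, and LRP1 eKO library 2 was the farthest of its group for 37.2%. Without both of these libraries, the median difference of the 7 genes was 2.00.

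**Figure D5:**
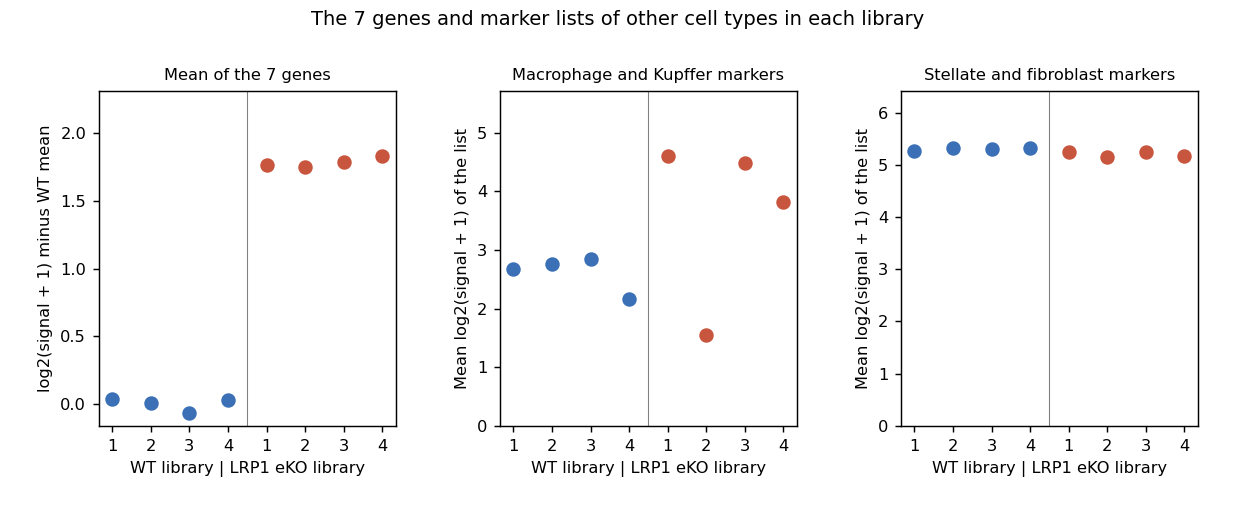
Mean profile of the 7 genes (left, log2(signal + 1) minus the WT mean) and mean log2(signal + 1) of macrophage and Kupffer cell markers (middle) and of stellate cell and fibroblast markers (right), by library, with WT in blue and LRP1 eKO in red. In LRP1 eKO library 2 the macrophage list was at 1.54, below the WT range of 2.17 to 2.85, and the 7 genes were at 1.75, beside 1.77 to 1.83 in the other LRP1 eKO libraries.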

How the data were processed

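The 8 libraries of liver ECs, 4 per genotype, were taken from 1 table. The authors deposited it as quantile-normalized signal of 22520 coding genes, and all 8 columns were used. The study's methods describe trimming with trimGalore, mapping to mm10 with STAR, and counting with featureCounts. The submitters' processing notes name TopHat2 and Cufflinks, and the quantile normalization is not described. Normalization fixed the totals of a library at 484445 to 485947, so depth is unknown.

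From the deposited signal, log2(signal + 1) was fitted in limma 3.58.1 (R 4.3.3) on genotype alone, with a trend of variance on mean and Benjamini-Hochberg adjustment. A filter, signal 1 or more in 4 or more libraries, left 11391 genes. A call was an adjusted p under 0.05 and at least a 2-fold change. Marker lists were compared by exact two-sided permutation of mean log2 signals, with p adjusted over 11 lists. The calculation was tested on simulated data, in which 200 of 200 changed genes were recovered among 11391. Those genes were shifted by more than the 2-fold limit and none had a mean near the filter level. The simulation therefore checks the code and gives no sensitivity at 2-fold or at low signals. Positions came from GENCODE M21, which held 21740 of the identifiers, and promoters from RefSeq on GRCm38.p6. Named genes were the 7, their family, interferon ligands, receptors, Janus kinases and ISGF3, up to 5 of each other list by smallest adjusted p or 3 by highest mean, and the 5 nearest profiles. For some lists fewer are named, and Cxcl10, Ifitm1, Ifitm2, Rsad2, Mx2, Oas2, Oas3, Ddx60, Slfn8, Gbp6, H2-Ab1, Eng, Tek, Erg, Oit3, Lrat, Ciita, Cd74, H2-Aa, H2-Eb1, Cxcl9, Clec4f, Siglech, Klk1, Lipa and Slc16a12 were named after their values were seen. Some items are not reported here. The members and lists were chosen with earlier results of these data known.

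As alternatives, the pseudocount was set to 0.1 or 5, the filter was dropped or replaced by a mean signal of at least 5, and the others were no trend, centring on a trimmed mean, the replicate number as a block, ratios of arithmetic means and leaving out each library.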

Additional observations from a re-analysis of the deposited data

Results flagged for a closer look

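Of 80 sets of 4 libraries examined for a library far from the other 3, 4 were found, and chance gives about 4. For Ifi27l2a in WT, library 4 was the highest, with a gap of 0.869 of the range of the group. For Irf1 in LRP1 eKO, library 2 was the lowest (0.835 of the range), and for Ddx58 in LRP1 eKO, library 3 was the highest (0.897 of the range). For the erythroid marker list in WT, library 2 was the highest (0.980 of the range), which came from globin transcripts listed in that library alone.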

How the results depend on the processing

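Over the alternatives run, the differences of the 7 genes gave 119 values, all above 0, of which 10 moved by more than the spread of the libraries. Those were pseudocounts of 0.1 (Ifit1, Ifit3 and Ifi44) and 5 (these and Ifit2) and the ratio of means (Ifit1, Ifit3 and Ifi44). The median of the 7 was 1.75 with a pseudocount of 5 and 1.81 to 1.97 when a library was left out. With a pseudocount of 0.1, 149 genes were called higher and 166 lower, with 2 Janus kinase and ISGF3 genes and 1 NF-kB gene. With a pseudocount of 5, 40 were called higher and 26 lower, and the calls were 0 in the family, 0 among Janus kinases and ISGF3, 1 sensor, 9 type I interferon-stimulated genes, 1 interferon gamma gene and 0 stress genes. With a mean signal of at least 5, 63 genes were called higher, with 0 in the family, 2 sensors and 12 type I genes. These are changes of the pseudocount or of the genes tested.

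Leaving out a library gave 89 to 174 genes higher (174 without LRP1 eKO library 2, against 99), 83 to 105 lower, 1 to 2 Janus kinase and ISGF3 genes, 4 to 5 sensors, 20 to 22 type I genes, 5 to 6 interferon gamma genes and 0 to 1 stress genes (0 without LRP1 eKO library 1, where Atf3 is lost). Of all calls 52.4% were higher, and 67.7% without LRP1 eKO library 2. Without both WT library 4 and LRP1 eKO library 2, a setting chosen after seeing the data, 163 genes were called higher, the median of the 7 was 2.00 and 2 Janus kinase and ISGF3 genes were called. The differences of marker lists ranged over the left-out libraries from 0.249 to 0.402 for endothelial, 0.490 to 0.898 for sinusoidal, 0.672 to 1.69 for macrophage, 0.173 to 0.213 for plasmacytoid, 0.0980 to 0.147 for neutrophil, -0.997 to -0.910 for hepatocyte, -0.120 to -0.0862 for stellate and -1.37 to -1.19 for muscle markers, and these 8 passed with an exact permutation p adjusted over the 11 lists of 0.0393 without LRP1 eKO library 2 only. The adjusted p depends on how many lists reach the smallest exact p together. Why more lists reached it without that library was not tested.

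The replicate numbers are shared by the genotypes, but same-numbered libraries did not deviate together (correlations across genes of -0.0856, -0.130, 0.178 and 0.0378). With the replicate block 102 genes were called higher and 90 lower, and the median difference of the 7 was 1.86. The signal carries no depth, so genes listed at 0 cannot be called absent.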
